A study of Mus musculus with 9 samples.

Results

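Hdac1 to Hdac10 are the mouse genes of the zinc-dependent histone deacetylases of classes I and II, enzymes that remove acetyl groups from lysines of histones and of other proteins. They were taken by symbol from a table of kidney gene expression, and all 10 were among its 54532 genes, with a value in each of 9 samples. The kidneys came from male C57BL/6J mice, wild type as far as the labels say, aged 4 months and sampled in 3 groups of 3. The ground controls (GC) were neither unloaded nor treated. The hindlimb-unloaded mice (HU), kept with the hind limbs lifted off the floor to mimic disuse or microgravity, received vehicle. The treated mice (PBA) were unloaded as well and received 4-phenylbutyric acid (4-PBA) into the peritoneum at 100 mg per kg per day. No group received vehicle without unloading, so unloading and vehicle cannot be told apart in the comparison of HU with GC. Each library is of poly(A)-selected RNA from a piece of whole kidney, and the labels do not say which of the mice in each group gave the 3 samples.

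4-PBA is known both as a chemical chaperone that eases protein folding in the endoplasmic reticulum and as an inhibitor of histone deacetylases. Such inhibitors act on the enzymes, while the libraries show only how much messenger RNA of each enzyme was present. Class I (Hdac1, Hdac2, Hdac3 and Hdac8) is mainly nuclear, and Hdac1, Hdac2 and Hdac3 work inside large corepressor complexes. Class IIa (Hdac4, Hdac5, Hdac7 and Hdac9) moves between nucleus and cytoplasm when kinases phosphorylate it and restrains transcription factors of the MEF2 family. Class IIb holds Hdac6, a mostly cytoplasmic enzyme that deacetylates tubulin, cortactin and the chaperone HSP90 and binds ubiquitin, and Hdac10, which acts on acetylated polyamines.

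The libraries were uneven. Reads assigned to genes numbered 7595631 to 15141784 per library, and the mitochondrial genome took 14.8% to 49.7% of them in the ground controls, 63.7% to 79.3% in the unloaded mice, and 15.2%, 13.7% and 67.1% in PBA1 to PBA3. The libraries GC3 and PBA3 thus stand apart from the other libraries of their groups. The summed level of 8 proximal tubule markers, which define the main cell type of the kidney cortex, was 2776 to 3309 FPKM in GC, 889 to 1092 FPKM in HU, and 2706, 3142 and 897 FPKM in PBA1 to PBA3. The sum of 5 fibroblast markers was 9.78 to 30.5 FPKM, 95.8 to 184.6 FPKM, and 40.9, 8.24 and 166.8 FPKM in the same order, and that of 8 endothelial markers 37.1 to 58.2, 28.9 to 70.8 and 38.4 to 54.1 FPKM. The part of these differences in the deacetylase results was not tested. FPKM are reads per length of the gene and per a size constant of the library, so levels of different genes can be set side by side. That constant was not in proportion to the reads assigned to genes. It came to 3.11e+06 reads in HU2, with 7595631 assigned, and to 2.50e+07 in PBA1, with 14617394 assigned. How it was set is not given in the sources used here. In whole tissue, fewer cells of a type and less RNA per cell cannot be told apart.

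In the ground controls Hdac6 had the highest mean of the 10 genes and Hdac9 the lowest. Hdac6 stood at 12.0 ± 4.21 FPKM (SD, n = 3), followed by Hdac3 (8.12 ± 0.820 FPKM), Hdac1 (6.85 ± 1.72 FPKM), Hdac5 (5.77 ± 1.61 FPKM), Hdac2 (5.63 ± 2.01 FPKM), Hdac10 (3.88 ± 0.409 FPKM) and Hdac7 (3.34 ± 1.47 FPKM). The ranges of each of these and the next in order overlapped, but ranges across mice do not compare genes within a library. In each of GC1, GC2 and GC3 Hdac6 was above Hdac3, Hdac3 above Hdac1 and Hdac1 above Hdac5. Hdac6 had 10.4, 8.82 and 16.8 FPKM there, and Hdac3 8.03, 7.35 and 8.98 FPKM. For Hdac5 and Hdac2, Hdac2 and Hdac10, and Hdac10 and Hdac7 the order differed between these libraries. The order within libraries was not tested. Hdac8 (0.690 ± 0.243 FPKM), Hdac4 (0.397 ± 0.0481 FPKM) and Hdac9 (0.0702 ± 0.0585 FPKM) lay below these 7 genes without overlap and did not overlap each other. In the unloaded mice Hdac6 ranked 6 of 10 at 3.57 ± 2.49 FPKM, behind Hdac3, Hdac2, Hdac1, Hdac5 and Hdac7, and its range overlapped those of Hdac7 above it and Hdac10 below it. In the treated mice it was again first at 9.60 ± 0.760 FPKM, without overlap with Hdac1, the next at 6.96 ± 1.32 FPKM (SD, n = 3 each), but its range of 8.74 to 10.2 FPKM overlapped that of Hdac5 (3.97 to 9.22 FPKM). Within PBA1, PBA2 and PBA3 Hdac6 was at 2.20, 1.88 and 1.10 times the level of Hdac5.

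**Figure D1:**
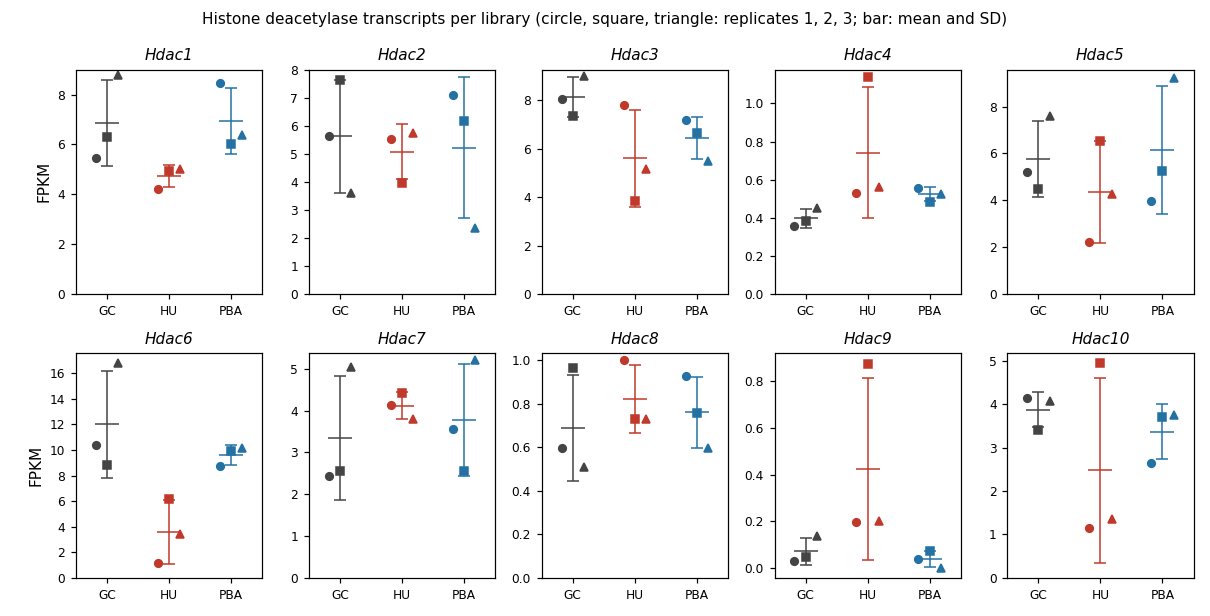
Level of each of the 10 deacetylase transcripts in FPKM (vertical axis, linear) in ground controls (GC), unloaded mice (HU) and unloaded mice given 4-PBA (PBA). Circles, squares and triangles are replicates 1, 2 and 3, and bars give the mean and SD. The HU values of Hdac6 (1.15 to 6.13 FPKM) lie below all GC and PBA values, and those of Hdac9 lie above them.

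Unloaded mice were compared with ground controls by limma on log2(FPKM + 1), over 12642 genes with at least 1 FPKM in at least 3 libraries. Of the 10 deacetylase genes 7 passed that filter, and Hdac4, Hdac8 and Hdac9 did not. Among the 7, Hdac6 alone passed an adjusted p of 0.05 (lower), while 10.2% of all genes tested passed, 5.32% higher and 4.90% lower. The share of members called, 1 of 7, is therefore close to the background. The median difference of the 7 was -0.44 on the log2(FPKM + 1) scale, beside -0.03 over all genes tested, with 6 of 7 negative. The groups did not overlap for Hdac1 and Hdac6 among the 7, beside 37.7% of all genes tested. Hdac4 and Hdac9 among the other 3 did not overlap either. For genes under the filter no such share was computed, so the background of Hdac4 and Hdac9 is not known.

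Hdac6 (ENSMUSG00000031161; mm10 chromosome X, 7930120 to 7947889, minus strand) was lower in HU than in GC. It had 10.4, 8.82 and 16.8 FPKM in GC1 to GC3, from 1177, 1229 and 1068 reads. It had 1.15, 6.13 and 3.42 FPKM in HU1 to HU3, from 40, 111 and 135 reads. All HU libraries were thus below all GC libraries, HU1 was the lowest and GC3 the highest, and the mean was 3.36-fold lower in HU. The log2 difference was -1.62 ± 0.42 (SE; 95% interval -2.56 to -0.69; limma adjusted p = 0.0388). Of 19 other settings all gave a negative difference, from -2.47 to -1.10, and 7 kept the call. Leaving out any of GC1, GC2, GC3, HU1, HU3, PBA1 or PBA2 ended it (adjusted p = 0.117, 0.0780, 0.134, 0.0724, 0.0815, 0.0592 and 0.0521 in limma), and so did a fit with the mitochondrial share as a covariate (-2.08, limma adjusted p = 0.103).

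The Hdac6 level is set beside the mitochondrial share of each library, whose part in the Hdac6 difference was not tested beyond the covariate fit, in which the call was lost. GC1, GC2, PBA1 and PBA2, at 13.7% to 18.9%, had 8.74 to 10.4 FPKM, and the 3 HU libraries, at 63.7% to 79.3%, had 1.15 to 6.13 FPKM. PBA3 had 67.1% mitochondrial reads and 10.2 FPKM of Hdac6 (369 reads), above the 3 HU libraries of similar share. GC3, at 49.7%, had the most Hdac6 of all. Among the HU libraries the one with the highest mitochondrial share, HU2 at 79.3%, also had the most Hdac6.

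**Figure D2:**
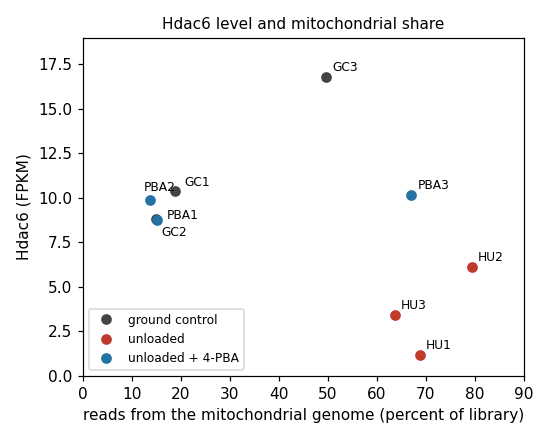
Hdac6 level in FPKM (vertical axis) against the percent of reads from the mitochondrial genome (horizontal axis) in the 9 libraries, coloured by group. Of the 5 libraries to the right, GC3 (16.8 FPKM) and PBA3 (10.2 FPKM) lie above HU1, HU2 and HU3 (1.15, 6.13 and 3.42 FPKM).

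The promoter of Hdac6 is shown because this gene carries the call. The 250 bases before its RefSeq start (GRCm38.p6, the assembly of mm10) have 61.2% G and C and 17 CpG, beside medians of 52.4% and 6 over 32851 mouse windows of the same length. Capitals mark 4 copies of GGGCGG (the GC box, bound by SP1-type factors) and 2 of CCAAT, searched on both strands, without overlap between the motifs. The GC box occurs in 32.7% and CCAAT in 33.8% of all such windows. TATAAA was not among these letters.
Hdac6, chrX:7947890-7948139, minus strand: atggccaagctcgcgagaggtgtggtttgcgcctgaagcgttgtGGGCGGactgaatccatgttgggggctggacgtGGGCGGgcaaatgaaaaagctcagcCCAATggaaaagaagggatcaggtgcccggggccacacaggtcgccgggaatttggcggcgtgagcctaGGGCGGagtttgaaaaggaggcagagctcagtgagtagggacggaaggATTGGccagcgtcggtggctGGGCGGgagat

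Hdac10, the other enzyme of class IIb, had 4.15, 3.41 and 4.08 FPKM in GC1 to GC3 and 1.14, 4.94 and 1.35 FPKM in HU1 to HU3. HU1 and HU3 were below all ground controls and HU2, with 52 reads, was above them, so the groups overlapped. The log2 difference was -0.65 ± 0.38 (SE; 95% interval -1.49 to 0.19; limma adjusted p = 0.274). Without HU2 it passed (limma adjusted p = 0.0404), as it did with scaling to total reads (0.0303).

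Class I gave no call. Hdac1 had 5.47, 6.30 and 8.78 FPKM in GC1 to GC3 and 4.23, 4.94 and 5.01 FPKM in HU1 to HU3. The groups lay apart by a small margin, and the log2 difference was -0.44 (95% interval -0.99 to 0.12; limma adjusted p = 0.267). Hdac3, the catalytic subunit of the NCoR and SMRT complexes, had 8.03, 7.35 and 8.98 FPKM against 7.78, 3.83 and 5.16 FPKM. HU1 sat inside the control range and HU2 and HU3 below it (log2 difference -0.51, 95% interval -1.11 to 0.09, limma adjusted p = 0.234). Hdac2, which shares its complexes with Hdac1, had 5.65, 7.63 and 3.61 FPKM against 5.54, 3.95 and 5.77 FPKM. Both groups covered much the same range, with a log2 difference of -0.09 (95% interval -0.94 to 0.75, limma adjusted p = 0.897) that turned positive under 4 of 19 settings, scaling to reads outside the mitochondrial genome among them (0.10). Hdac8, which works without a corepressor complex, had 0.595, 0.966 and 0.510 FPKM against 1.00, 0.730 and 0.731 FPKM, from 11 to 112 reads, and was under the filter. Its value is uncertain because an antisense transcript, Gm14858, shares 80860 bases with the gene and the strand setting of the counting is not given in the sources used here.

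Class IIa also gave no call, and its members did not move alike. Hdac5 had 5.22, 4.50 and 7.58 FPKM in GC1 to GC3 and 2.23, 6.55 and 4.28 FPKM in HU1 to HU3. HU1 and HU3 were below the controls and HU2 inside their range (log2 difference -0.40, 95% interval -1.25 to 0.46, limma adjusted p = 0.516). With scaling to total reads Hdac5 passed (limma adjusted p = 0.0453). Hdac7, a class IIa enzyme known from endothelial cells, was the one tested member with a positive difference. It had 2.43, 2.55 and 5.04 FPKM against 4.14, 4.42 and 3.80 FPKM, so that 2 controls were below the HU range and GC3 above it. The log2 difference was 0.29 (95% interval -0.40 to 0.97, limma adjusted p = 0.559), and it was -0.52 with scaling to total reads. The neighbouring Slc48a1 overlaps Hdac7 by 29 bases on the other strand.

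Hdac4 and Hdac9 were under the filter on low values and were not part of the test. Hdac4 had 0.357, 0.383 and 0.451 FPKM in GC1 to GC3 and 0.530, 1.14 and 0.559 FPKM in HU1 to HU3, from 50 to 145 reads each. All HU libraries were above all ground controls, HU2 by the widest margin. Hdac9 had 0.0280, 0.0456 and 0.137 FPKM from 8, 16 and 22 reads, and 0.194, 0.876 and 0.201 FPKM from 17, 40 and 20 reads. The HU libraries were again above the controls, HU2 by the widest margin. They had fewer reads in all, and HU2, with the fewest outside the mitochondrial genome (1568888), had the most genes above 0 (21396). Pseudogenes took 3.73% to 7.54% of reads outside the mitochondrial genome in HU and 1.16% to 1.76% in GC. The part of these library differences in the Hdac4 and Hdac9 values was not tested. In a fit without the filter neither gene passed, with log2 differences of 0.30 for Hdac4 (95% interval -0.28 to 0.89, limma adjusted p = 0.467) and 0.38 for Hdac9 (-0.03 to 0.79, limma adjusted p = 0.304). Other transcripts lie inside the spans of both genes, introns included, Gm37048 and Gm26720 against the direction of Hdac4 and Gm18025 along that of Hdac9. Overlap of exons was not computed, so the part of these transcripts in both values is uncertain.

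**Figure D3:**
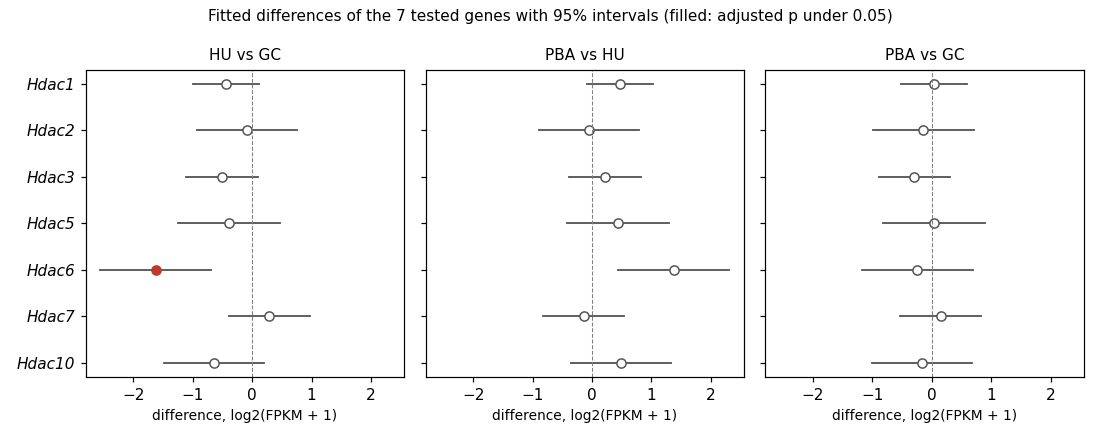
Differences on the log2(FPKM + 1) scale with 95% intervals for the 7 tested genes (rows) in HU against GC, PBA against HU and PBA against GC (panels); a filled point passed an adjusted p of 0.05 in limma. The filled point is Hdac6 in HU against GC (-1.62), and its value in PBA against HU is 1.38.

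Promoters of 2 class IIa genes are set beside each other because these were the best and the least expressed of the class in the ground controls. The Hdac5 window holds 60.8% G and C and 12 CpG, and the Hdac9 window 44.4% and 0. In capitals stand, for Hdac5, 2 copies of CCAAT and 1 GC box, each on the reverse strand, and 1 match to the MEF2 site, 20 to 11 bases before the start and the same on both strands. For Hdac9 they mark TATAAA, 29 to 24 bases before the start. The MEF2 site was searched on both strands as a pattern: C or T, TA, 4 letters of A or T, TA, then A or G. That pattern occurs in 2.92% and TATAAA in 12.4% of the 32851 windows. Windows were listed for 7 of the 10 genes, and Hdac9 has another, further inside the gene, with none of the 4 motifs.
Hdac5, chr11:102230173-102230422, minus strand: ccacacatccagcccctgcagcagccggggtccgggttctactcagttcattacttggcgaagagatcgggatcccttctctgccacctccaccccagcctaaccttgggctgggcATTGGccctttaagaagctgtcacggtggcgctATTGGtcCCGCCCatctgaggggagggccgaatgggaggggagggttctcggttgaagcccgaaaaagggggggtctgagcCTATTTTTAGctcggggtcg
Hdac9, chr12:34917096-34917345, minus strand: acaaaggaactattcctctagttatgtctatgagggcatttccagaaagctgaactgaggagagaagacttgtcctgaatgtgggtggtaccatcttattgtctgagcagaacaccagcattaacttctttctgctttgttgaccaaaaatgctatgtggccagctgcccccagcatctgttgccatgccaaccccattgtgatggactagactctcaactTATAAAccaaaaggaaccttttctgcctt

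The share of each gene in the summed FPKM of the 10 does not depend on how a library was scaled. These shares were computed after the levels had been seen and carry no test. Hdac6 made up 24.6%, 21.0% and 30.0% of the sum in GC1 to GC3, and 4.12%, 16.3% and 11.3% in HU1 to HU3. Its share was 20.2%, 23.8% and 23.3% in PBA1 to PBA3, and the HU libraries overlapped neither other group. Hdac7 made up 5.75% to 9.01% in GC and 11.8% to 14.8% in HU, also without overlap, and 8.26%, 6.13% and 11.9% in PBA1 to PBA3. Since the shares of a library add up to the whole, those of the other genes rise where that of Hdac6 falls, and the FPKM of Hdac7 itself overlapped between GC and HU. Class IIa as a whole took 17.8% to 23.6% in GC and 25.4% to 34.6% in HU. It took 18.8% and 20.1% in PBA1 and PBA2 but 34.2% in PBA3, where Hdac5 reached 21.1%. Class IIb, which holds Hdac6, took 29.2% to 37.3% in GC, 8.20% to 29.5% in HU and 26.3% to 32.7% in PBA, with overlap. Class I overlapped between all groups, at 39.1% to 53.0%, 35.9% to 66.4% and 33.9% to 54.9%. The sum itself was 42.0 to 55.9 FPKM in GC, 27.9 to 37.5 FPKM in HU and 41.6 to 43.7 FPKM in PBA.

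**Figure D4:**
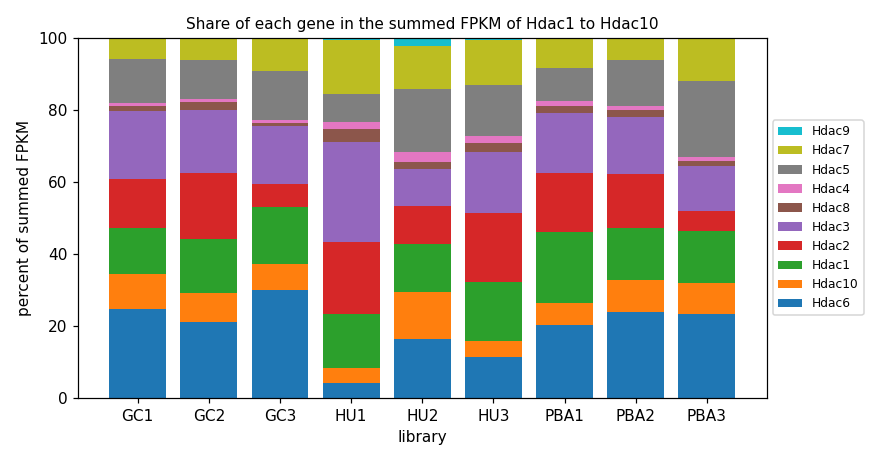
Percent of the summed FPKM of Hdac1 to Hdac10 taken by each gene (stacked bars, vertical axis) in each of the 9 libraries (horizontal axis). The lowest segment, Hdac6, is 4.12% to 16.3% in HU1 to HU3 and 20.2% to 30.0% in the other 6 libraries.

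The comparison of treated with untreated unloaded mice asks whether 4-PBA altered the levels of its own second target. None of the 7 tested members passed, while 2.69% of all genes tested did. This comparison shares the HU libraries with the one above, so a member low in HU tends to come out positive here. The median difference of the 7 was 0.43, beside 0.02 over all genes tested, with 5 of 7 positive. Hdac6 had 8.74, 9.89 and 10.2 FPKM in PBA1 to PBA3, close together and all above the HU libraries. Its log2 difference was 1.38 ± 0.42 (SE; 95% interval 0.44 to 2.31; unadjusted p = 0.00840, adjusted p = 0.116 in limma). It passed with scaling to total reads (2.15, limma adjusted p = 0.0271) and with limma-voom on recovered reads (2.11, adjusted p = 0.0448), and in none of the 17 other settings.

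Hdac1, at 8.47, 6.02 and 6.38 FPKM in PBA1 to PBA3, was also above all HU libraries (log2 difference 0.47, 95% interval -0.09 to 1.02, limma adjusted p = 0.328). Hdac6 and Hdac1 were the tested members whose groups did not overlap, beside 20.3% of all genes tested. Hdac9, not tested, had 0.0382 and 0.0714 FPKM in PBA1 and PBA2, from 14 and 24 reads, and was listed at 0 in PBA3, where 3 reads would be 0.0328 FPKM. All were below the HU libraries, with no share over genes under the filter computed beside it. In the fit without a filter the log2 difference was -0.42 (95% interval -0.83 to -0.02, limma adjusted p = 0.363). Hdac2 showed the spread within the treated group, with 7.12, 6.20 and 2.37 FPKM in PBA1 to PBA3, and Hdac5 the opposite order, with 3.97, 5.25 and 9.22 FPKM. The other tested members had 95% intervals that included 0: Hdac3 (-0.39 to 0.82), Hdac5 (-0.42 to 1.29), Hdac10 (-0.36 to 1.32), Hdac2 (-0.90 to 0.79) and Hdac7 (-0.82 to 0.55).

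In treated mice against ground controls no tested deacetylase passed in limma, and 0.00% of all 12642 genes did. At an unadjusted p under 0.05 there were 165 genes, none of them a deacetylase, and limma-voom also called 0. Hdac6 differed by -0.25 (95% interval -1.18 to 0.68), an interval that leaves room for a change of more than 1 log2 unit downwards. Hdac3 was the tested member without overlap, at 7.19, 6.66 and 5.50 FPKM in PBA1 to PBA3 against 7.35 to 8.98 FPKM in GC, beside 8.00% of all genes tested (log2 difference -0.29, 95% interval -0.90 to 0.31). Hdac4, untested, was higher in each PBA library (0.557, 0.485 and 0.527 FPKM) than in any ground control. Here too no share over genes under the filter was computed.

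Of the deacetylases outside the 10, Hdac11, the class IV enzyme, had 4.79 ± 0.479, 5.20 ± 0.687 and 4.29 ± 0.910 FPKM in GC, HU and PBA (SD, n = 3 each), with overlap in every comparison. With the 7 sirtuins, which use NAD in place of zinc, it makes a list of 8 genes, all tested, of which 2 fell and none rose in HU against GC (median 0.06), beside 4.90% lower and 5.32% higher of all genes tested. Sirt4, a mitochondrial sirtuin, had 4.65, 4.32 and 4.80 FPKM in GC and was listed at 0 in HU1, with 2.14 and 0.492 FPKM in HU2 and HU3 (log2 difference -1.74, limma adjusted p = 0.0267). Sirt7, a nucleolar one, had 10.8 ± 3.21 FPKM in GC and 3.57 ± 1.13 FPKM in HU (SD, n = 3 each), a difference of -1.37 (limma adjusted p = 0.0361). Without GC3 and PBA3 neither passed (limma adjusted p = 0.0555 and 0.0522). Left out singly, GC1, GC2, GC3, HU1 or HU3 ended the call of Sirt4 (limma adjusted p = 0.0524 to 0.107), and these or HU2 or PBA1 that of Sirt7 (0.0565 to 0.123).

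The complexes that carry Hdac1, Hdac2 and Hdac3 gave no call in any comparison. Over all genes tested 10.2% passed in HU against GC, 2.69% in PBA against HU and 0.00% in PBA against GC. In HU against GC, 0 of 11 NuRD subunits (median 0.17), 0 of 14 SIN3 subunits (-0.23), 0 of 5 tested of 7 CoREST and MiDAC subunits (-0.24) and 0 of 5 NCoR and SMRT subunits (0.23) passed. The smallest p of these lists belonged to Sap130, a SIN3 subunit, at 4.49 ± 0.640 FPKM in GC and 1.36 ± 1.25 FPKM in HU (SD, n = 3 each), and its difference of -1.34 (log2) did not pass (limma adjusted p = 0.0711). The chromatin remodeller Chd4 of NuRD had 16.5 ± 4.02 and 9.48 ± 1.69 FPKM (-0.73, limma adjusted p = 0.110), and the histone chaperone Rbbp4 3.33 ± 1.24 and 6.07 ± 0.653 FPKM (0.74, limma adjusted p = 0.148; SD, n = 3 each). In the other lists the smallest p fell to Rcor1 and Elmsan1 (0.30 and 0.56) and to Ncor1 and Tbl1xr1 (0.33 and 0.41), all with adjusted p over 0.3 in limma.

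Among the opposing enzymes, 1 of 12 tested of 13 histone acetyltransferases fell in HU against GC and none rose (median 0.19). Over all genes tested 4.90% were called lower and 5.32% higher. The acetyltransferase that fell was Kat2a (GCN5), at 5.35, 4.14 and 6.01 FPKM in GC1 to GC3 and 2.31, 1.85 and 2.92 FPKM in HU1 to HU3 (log2 difference -0.88, limma adjusted p = 0.0458). It kept its call in 3 of 19 other settings, and without any library but PBA3 it did not pass (limma adjusted p = 0.0625 to 0.168, and 0.0321 without PBA3). None of 5 bromodomain proteins, which read acetyl-lysine, passed (median 0.04), with Brd2 at 0.47 and Brd9 at -0.46. Of 17 tested of 20 class IIa partners (MEF2 factors, 14-3-3 proteins and the kinases that drive class IIa out of the nucleus) 1 fell, none rose and the median was 0.01. The gene that fell was Camk2g, a calcium- and calmodulin-dependent kinase, with 2.18, 2.32 and 4.05 FPKM against 0.314, 0.151 and 0.806 FPKM (log2 difference -1.43, limma adjusted p = 0.0200), and it kept its call in 14 of 19 other settings but not without GC1, GC2 or GC3 (limma adjusted p = 0.0771, 0.0593 and 0.0777). Of 10 substrates and partners of Hdac6, 1 fell and none rose, with a median of -0.59. The same 4.90% and 5.32% of all genes tested stand beside each of these lists. None of the lists had a call in PBA against HU or PBA against GC, where 2.69% and 0.00% of all genes tested passed.

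Genes known to answer to deacetylase inhibitors were read as a list because inhibitors act on the enzymes and not directly on their messenger RNA. In PBA against HU, 0 of 10 genes that inhibitors are known to induce and 0 of 3 tested of 5 that they are known to lower passed, with medians of -0.11 and -0.60. Over all genes tested 2.69% passed. The induced genes went both ways, from a log2 difference of -1.81 for Gsn to 1.93 for Clu (limma adjusted p = 0.147 and 0.110). Cdkn1a, the cell cycle inhibitor p21 and a classic induced gene, had 0.915 ± 0.170, 0.774 ± 0.691 and 1.13 ± 0.368 FPKM in GC, HU and PBA (SD, n = 3 each), a log2 difference of 0.34 between PBA and HU (95% interval -0.45 to 1.12). H1f0, the replacement linker histone and another induced gene, had the opposite sign. It had 43.4, 50.2 and 36.0 FPKM in GC1 to GC3, 119, 99.4 and 127 FPKM in HU1 to HU3, and 73.5, 42.7 and 51.1 FPKM in PBA1 to PBA3. It rose in HU against GC (1.40 ± 0.29 SE, limma adjusted p = 0.0212) and was lower in all PBA than in all HU libraries without passing (-1.06 ± 0.29 SE, limma adjusted p = 0.0844). The rise did not pass without GC1, GC2, GC3, HU1 or HU3 (limma adjusted p = 0.0511 to 0.0925).

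In HU against GC, 3 of the 10 induced genes rose and 1 fell (median 0.56), beside 5.32% and 4.90% of all genes tested. Besides H1f0 these were Gsn (gelsolin, which severs actin filaments; log2 difference 2.60, limma adjusted p = 0.0300) and Timp3 (a matrix protease inhibitor; 1.43, limma adjusted p = 0.0412) among the rises, and Clu (clusterin, a secreted chaperone; -2.42, limma adjusted p = 0.0310). Gsn and Timp3 are also expressed by fibroblasts, whose markers were higher in the HU libraries and in PBA3. In PBA3, Gsn had 105 FPKM and Timp3 38.7 FPKM, within the range from 101 to 238 FPKM for Gsn and from 28.5 to 55.0 FPKM for Timp3 in HU. The part of those cells in these results was not tested. Without GC1, GC2, GC3, HU2 or HU3 none of Gsn, Timp3 and Clu passed (limma adjusted p from 0.0619 to 0.121 for Gsn, from 0.0928 to 0.133 for Timp3 and from 0.0744 to 0.113 for Clu), and Timp3 did not pass without PBA1 either (0.0624).

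Of the genes that inhibitors are known to lower, Ccnd1 (cyclin D1) rose from 3.76 ± 0.152 to 24.0 ± 2.94 FPKM in HU (SD, n = 3 each), a difference of 2.38 on the log2(FPKM + 1) scale (limma adjusted p = 0.00800). It kept that call in 17 of 19 other settings, and with any 1 library left out (limma adjusted p = 0.00160 to 0.0496). In the treated mice it had 9.74, 4.08 and 12.1 FPKM in PBA1 to PBA3, between both other groups and without overlap with either. The log2 difference of PBA from HU was -1.47 ± 0.34 (SE, limma adjusted p = 0.0544).

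**Figure D5:**
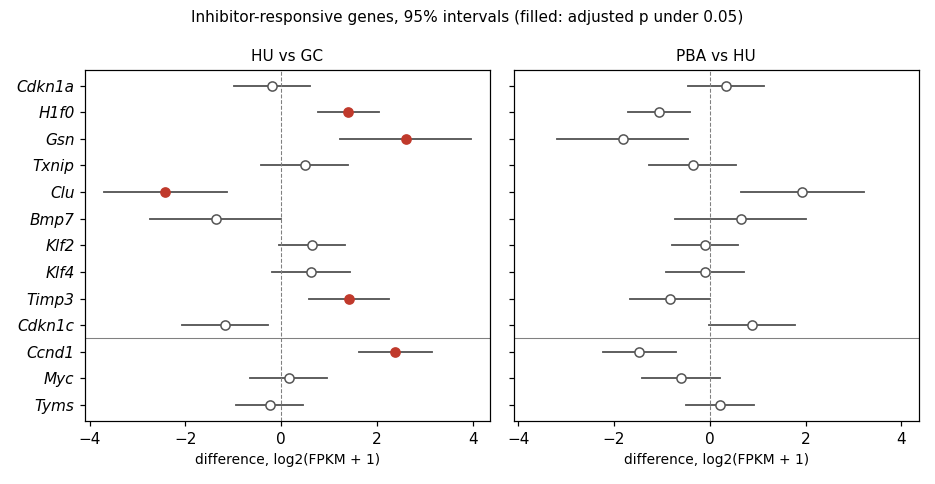
Differences on the log2(FPKM + 1) scale with 95% intervals (horizontal axis) for 10 genes known to be induced (above the line) and 3 tested genes known to be lowered (below it) by deacetylase inhibitors, in HU against GC and PBA against HU; filled points passed an adjusted p of 0.05 in limma. No point is filled in PBA against HU. Of the induced genes, H1f0, Gsn, Timp3, Txnip, Klf2 and Klf4 lie to the left of 0 there, and Clu, Cdkn1c, Bmp7 and Cdkn1a to the right.

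Among the 3 genes whose pattern over the 9 samples was most like that of Hdac6 were Skiv2l and Ell. Likeness was the root mean square distance between centred log2(FPKM + 1) values, 0.16 for each, beside 0.85 for the spread of Hdac6 itself. Skiv2l, an RNA helicase of the cytoplasmic exosome pathway, had 9.21 ± 2.70, 3.14 ± 2.36 and 7.78 ± 0.658 FPKM in GC, HU and PBA. Ell, an RNA polymerase II elongation factor, had 5.09 ± 1.68, 1.24 ± 1.10 and 4.08 ± 1.04 FPKM, with HU1 listed at 0 (SD, n = 3 each).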

How the data were processed

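Kidney poly(A) RNA was measured in 9 samples. The submitters' processing notes name CASAVA, cutadapt, HISAT2 and mm10. Their versions, the counting tool and its strand setting were not given in the sources used here. Values deposited by the authors behave as FPKM: times the gene length and 1 constant per library they gave whole reads for 100% of values (tolerance 0.01), which gave the depths. A floor of 3 reads covers counting error only. No 2 libraries held identical values.

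limma 3.58.1 (R 4.3.3) was fitted to log2(FPKM + 1) of all 9 samples in 3 groups, with an empirical Bayes trend, genes of at least 1 FPKM in at least 3 libraries, and Benjamini-Hochberg adjustment over all 12642. The pseudocount understates differences of low genes. P-values set a difference against the spread between samples within the 3 groups, drawn by empirical Bayes towards a trend over all genes tested. The code was tested on simulated data. Alternatives changed scaling, pseudocount (0.1, 4), filter, samples, block, covariate or test (limma-voom on recovered reads).

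Members and gene lists were chosen with earlier results of these data known. All members are named; of each list, those past the threshold in HU against GC (at most 4), otherwise the 2 with the smallest p; and the 3 genes nearest Hdac6. Of these, 2 genes are not reported here. Inhibitor-responsive genes beyond that rule, the promoters shown, the motifs and the percent shares were chosen after values or sequences had been seen. Promoters are RefSeq's, GRCm38.p6. Figures used Python 3.11.15 and matplotlib 3.10.9.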

Additional observations from a re-analysis of the deposited data

How the results depend on the processing

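The low number of reads in the unloaded libraries (1568888 to 3037972 outside the mitochondrial genome) and 3 samples a group limit what could be seen. Where a setting moved a result the cause was not tested. Scaling to total reads moved the median of all genes in HU against GC to -0.78, and Hdac6 was -1.69 relative to it; with scaling to reads outside the mitochondrial genome these were 0.14 and -1.59, and with limma-voom -0.27 and -2.15. Over the 19 alternatives Hdac6 kept its direction in HU against GC and in PBA against HU, and Hdac3 and Hdac10 did in all 3 comparisons. In PBA against GC, Hdac6 went from -0.25 to -1.4e-05 without GC3, which is no direction.

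In HU against GC the Hdac6 difference no longer passed with a pseudocount of 0.1 (-1.95, limma adjusted p = 0.0552), without the filter (-1.62, 0.107), with only the 6 samples compared (-1.62, 0.0558), with the mitochondrial share as a covariate (-2.08, 0.103) and without GC3 and PBA3 together (-1.38, 0.0986); leaving out 1 library each gave -2.03 to -1.16. The count of members called was 0 under each of these 5 settings, 3 with scaling to total reads (Hdac5, Hdac6 and Hdac10), and 0 to 2 with 1 library left out. In PBA against HU, Hdac6 passed, and the count became 1, with scaling to total reads (2.15) and with limma-voom (2.11). Replicate numbers do not pair the samples by the labels, and same-numbered samples correlated at -0.20 to 0.29 (2 of 9 pairs over 0.1); with a replicate block Hdac6 was called in HU against GC (limma adjusted p = 0.0490), and 137 genes in PBA against HU.

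Over all genes, 1292 were called in HU against GC, 2273 with scaling to total reads, 238 without the filter, 99 with the covariate and 79 to 2375 with 1 library left out. In PBA against HU the count was 340, and 649, 17 and 121 under the same 3 settings, 145 with a pseudocount of 0.1, 17 with only the 6 samples, 1264 without GC3 and PBA3, and 1 to 1383 with 1 library left out.

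Some uncalled differences changed sign. In HU against GC, Hdac2 was 0.10 with scaling to reads outside the mitochondrial genome, 0.89 with the covariate and -0.33 to 0.12 with 1 library left out, and Hdac7 was -0.52 with scaling to total reads and -0.36 with the covariate. In PBA against HU, Hdac2 was 0.77 with scaling to total reads, 0.13 with limma-voom, 0.34 without GC3 and PBA3 and -0.29 to 0.34 with 1 library left out, and Hdac7 was 0.61 with scaling to total reads, 0.45 with the covariate and -0.34 to 0.058 with 1 library left out. In PBA against GC, Hdac1 was -0.031 with scaling to total reads and -0.10 to 0.20 with 1 library left out, Hdac2 was 0.012 without GC3 and PBA3 and -0.38 to 0.25 with 1 library left out, Hdac5 was -0.043 with scaling to total reads, -0.0073 with limma-voom, -0.037 with the covariate, -0.069 without GC3 and PBA3 and -0.25 to 0.27 with 1 library left out, and Hdac7 was -0.057 to 0.41 with 1 library left out.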

Other observations

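Among the cell type markers, adipocyte genes stood high in 1 control and 1 treated library, with a summed level of 364.3 FPKM in GC2 and 362.5 FPKM in PBA3 and 8.00 to 16.8 FPKM in the other 7 libraries. Hdac4, which adipose tissue also expresses, had 0.383 FPKM in GC2 and 0.527 FPKM in PBA3, inside the range of their groups. Smooth muscle and pericyte markers summed to 240.2 FPKM in PBA3 and to 35.1 to 100.2 FPKM elsewhere. Markers of dividing cells summed to 0.373 to 2.05 FPKM over all libraries, and none of the 4 passed the filter.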
